A study of Mus musculus with 24 samples.

Results

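Livers of mice carrying a SREBP-1a transgene without its MAP kinase sites (alb-SREBP-1a∆P) were compared with livers of mice carrying the intact transgene (alb-SREBP-1a), using all 8 arrays of each line and so 16 of the 24 arrays of the series; the other 8 arrays came from C57Bl6 mice without a transgene and give the level beside single results. All animals were 24-week-old males on a C57Bl6 background, kept on a standard chow diet and killed by CO2 asphyxiation, and each array held liver RNA of 1 mouse. Both transgenes encode the transcriptionally active N-terminal part of human SREBP-1a and are driven by the albumin promoter, which is active in hepatocytes. In alb-SREBP-1a∆P the serine and threonine residues that MAP kinases phosphorylate were replaced, so that the sites, and not a stretch of the protein, are missing. Both lines overexpress a protein that is already free of its membrane anchor. The comparison is therefore between lines that overexpress an active factor with and without the sites, and not of SREBP-1a made from its own gene. The number of founder lines behind each genotype is not given in the sources used here. Transgene level was not measured here, so level and insertion site are not separated from the sites. The paper reports visceral obesity and fatty liver in alb-SREBP-1a, and a lower food intake in alb-SREBP-1a∆P than in C57Bl6. The part of transgene level, insertion site and these traits in the differences below was not tested.

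SREBPs are transcription factors that are held in the endoplasmic reticulum by SCAP and INSIG proteins, are released by proteolysis when sterols are low, and switch on genes of cholesterol and fatty acid synthesis. SREBP-1a is the isoform with the long activation domain and acts on both sets of genes. ERK, JNK and p38 are MAP kinases, which carry signals of growth factors, insulin, cytokines and stress to nuclear proteins, SREBP-1a among them.

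In the livers with the site-deficient transgene 34 of 39 proteasome subunit genes, 60 of 77 mitochondrial ribosomal protein genes, 40 of 49 translation initiation factor genes and 12 of 18 target genes of the fatty acid receptor PPARα fell. In that order 16, 28, 11 and 7 of them fell under each scaling of the arrays described below. Among all probe sets of like brightness 45.0%, 61.4%, 61.4% and 45.0% fell in the deposited values. Under each scaling 316 of 3556, 485 of 3555, 485 of 3555 and 316 of 3556 of those probe sets fell. None of 17 measured genes of fatty acid synthesis passed the test in the deposited values, and of 18 cholesterol genes 10 fell, 1 of them under each scaling. For both lists 45.0% of probe sets of like brightness fell in the deposited values, and 316 of 3556 under each scaling. Of 300 microRNA genes 146 rose, 53 of them under each scaling. Of probe sets of like brightness 37.0% rose, and 251 of 3555 did so under each scaling. Of 1027 olfactory receptor genes 697 rose, 230 of them under each scaling, against 33.4% and 248 of 3556 of probe sets of like brightness.

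Promoters of 4 genes that fell are shown because the lists to which such genes belong differ in how often they hold the motif marked. Each runs 5′ to 3′ on the strand of the gene, from 250 bases before to 50 bases after its start, and comes from RefSeq with the build GRCm38.p6. Capitals mark the E-box CACGTG, a sequence that SREBPs and other helix-loop-helix factors bind, in the promoters of the lipid droplet coat gene Plin2 (minus strand, chr4:86670010-86670309) and of the cholesterol synthesis gene Sc5d (minus strand, chr9:42264251-42264550). They mark CCGGAAG, on either strand, a core sequence of ETS factor sites, in those of the ribosome assembly gene Brix1 (minus strand, chr15:10485888-10486187) and of the splicing factor gene Sf3b6 (plus strand, chr12:4817358-4817657).
Plin2: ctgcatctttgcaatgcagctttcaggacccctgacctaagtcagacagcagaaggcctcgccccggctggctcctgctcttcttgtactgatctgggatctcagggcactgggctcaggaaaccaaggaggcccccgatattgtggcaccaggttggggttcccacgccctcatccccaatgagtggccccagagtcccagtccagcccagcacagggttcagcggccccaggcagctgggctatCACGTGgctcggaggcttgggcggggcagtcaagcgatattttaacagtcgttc
Sc5d: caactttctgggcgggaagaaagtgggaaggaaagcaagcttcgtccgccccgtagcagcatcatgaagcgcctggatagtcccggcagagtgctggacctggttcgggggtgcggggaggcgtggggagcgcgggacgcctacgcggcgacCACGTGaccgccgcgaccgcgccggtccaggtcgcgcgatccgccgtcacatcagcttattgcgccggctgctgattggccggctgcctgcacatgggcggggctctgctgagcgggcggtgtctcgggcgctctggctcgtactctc
Brix1: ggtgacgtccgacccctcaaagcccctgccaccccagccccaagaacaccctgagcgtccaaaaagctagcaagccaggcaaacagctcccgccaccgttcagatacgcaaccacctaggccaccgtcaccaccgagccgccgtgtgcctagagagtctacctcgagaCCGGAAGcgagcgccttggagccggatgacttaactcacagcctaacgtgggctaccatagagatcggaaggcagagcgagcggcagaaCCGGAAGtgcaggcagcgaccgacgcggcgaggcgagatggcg
Sf3b6: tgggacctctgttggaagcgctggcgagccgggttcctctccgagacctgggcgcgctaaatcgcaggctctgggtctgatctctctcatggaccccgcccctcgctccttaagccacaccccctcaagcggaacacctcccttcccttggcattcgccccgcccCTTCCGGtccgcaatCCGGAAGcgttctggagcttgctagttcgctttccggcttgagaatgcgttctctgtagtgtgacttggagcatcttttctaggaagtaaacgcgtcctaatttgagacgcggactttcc

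Mature sequences are given for 4 microRNAs whose genes lay higher in alb-SREBP-1a∆P. Capitals mark the seed, bases 2 to 8, through which a microRNA pairs with its targets. For Mir301b the RefSeq source held only the 5p form, so the 3p form, which has its own seed, is not printed. The probes on the array read the genes of the precursors, so the values given further on are not levels of these mature molecules. The Mir680-1, Mir680-2 and Mir680-3 genes share 1 seed, as do Mir365-1 and Mir365-2, and probes of such near-identical copies may read each other.
mmu-miR-680: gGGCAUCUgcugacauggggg
mmu-miR-365-3p: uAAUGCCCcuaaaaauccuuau
mmu-miR-301b-5p: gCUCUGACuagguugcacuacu
mmu-miR-346-5p: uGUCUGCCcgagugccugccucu

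On a principal component plot of the 16 arrays, with 36.2% of the variance on the first axis and 9.69% on the second, the lines lay on opposite sides of the first axis except for replicate 4 of alb-SREBP-1a∆P, at -6.98 against 34.2 to 72.2 for the other 7. The spread among mice of 1 line was wider in alb-SREBP-1a∆P. Its median SD over the probe sets was 0.264 on the log2 scale, and 0.257 without replicate 4, against 0.219 in alb-SREBP-1a and 0.198 in C57Bl6. The lines also differed in how far dim and bright signals lay apart on an array: the interquartile range of log2 values was 2.36 ± 0.068 (SD, n = 8) in alb-SREBP-1a∆P and 2.77 ± 0.106 (SD, n = 8) in alb-SREBP-1a, with no overlap between the lines (two-sided exact permutation test, p = 0.000155, the smallest that 12870 divisions allow). The mean of the brightest decile of probe sets was 10.1 against 10.3 and that of the dimmest decile 2.87 against 2.67, so counts below are set beside the share in the decile of like brightness, and the part of this spread in the results was not tested. Deciles are the 10 groups of equal size into which all probe sets were divided by mean level.

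**Figure D1:**
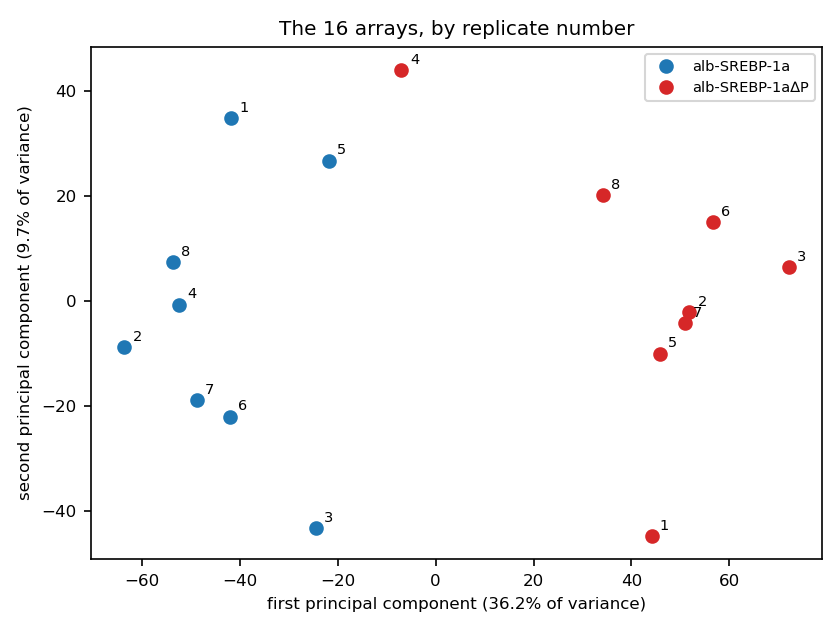
Principal components of the log2 values of the 16 arrays, first against second axis, with 1 point per array numbered by replicate and coloured by line. Replicate 4 of alb-SREBP-1a∆P lies at -6.98 on the first axis, between the other 7 arrays of its line (34.2 to 72.2) and those of alb-SREBP-1a (-63.6 to -21.8).

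The samples carried the marks of liver. All 13 measured hepatocyte marker genes lay above the median level of the array, and their mean log2 level ran from 13.4 to 13.7 over the alb-SREBP-1a arrays and from 13.4 to 13.5 over those of alb-SREBP-1a∆P. Albumin (Alb, difference -0.05 ± 0.06, adjusted p = 0.51) and transthyretin (Ttr, -0.12 ± 0.06, adjusted p = 0.11) did not pass the test, and both were lower with an adjusted p under 0.05 when each array was centred on its median. The iron carrier transferrin (Trf) fell by 0.21 ± 0.07 (adjusted p = 0.021), the 1 hepatocyte marker that did. Here and below a difference is alb-SREBP-1a∆P minus alb-SREBP-1a on the log2 scale, ± is the standard error from limma with 8 arrays a line, and the p is adjusted over all probe sets.

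Srebf1, the mouse gene of both SREBP-1 isoforms, checks the lines only in part, as whether its probes read the human transgene was not tested. Its log2 signal was 8.66 (lowest), 9.38 (median) and 9.68 (highest) over the 8 alb-SREBP-1a arrays, and 8.19, 8.64 and 8.99 over the 8 alb-SREBP-1a∆P arrays. In 5 of 8 alb-SREBP-1a∆P arrays the signal lay below all alb-SREBP-1a arrays, and the mean of C57Bl6 (9.01) lay between the lines. Srebf1 fell by 0.73 ± 0.14 (adjusted p = 0.0011), a 1.66-fold difference.

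Of 35556 probe sets 8105 (22.8%) rose and 7607 (21.4%) fell in alb-SREBP-1a∆P at an adjusted p under 0.05, with a median absolute difference of 0.288 over all of them. Without replicate 4 of alb-SREBP-1a∆P the counts were 8091 and 7718. Scaling decided many of these calls: the median of all probe sets moved by -0.10 with quantile normalization, by -0.17 with centring of each array on its median and by -0.09 with cyclic loess, relative to the deposited values. In the deposited values and all 3 other scalings 2426 probe sets (6.82%) rose and 3073 (8.64%) fell, and no probe set was called in the opposite direction by any of the scalings. The split of higher to lower calls was 8105 to 7607 in the deposited values, 3420 to 4906 after quantile normalization, 3582 to 11410 after centring and 4110 to 3903 after cyclic loess. All 8 alb-SREBP-1a∆P arrays lay above every alb-SREBP-1a array for 670 probe sets (1.88%) and below every one for 1445 (4.06%). Counted by gene, with the brightest probe set of each of 19938 genes, 4433 (22.2%) rose and 5655 (28.4%) fell, 799 and 2140 of them in all 4 scalings, and the median gene differed by 0.03. Below, "in all 4 scalings" means called the same way in the deposited values and in these 3.

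Falls lay mostly among bright probe sets and rises among dim ones. In the brightest 3 deciles 51.1%, 61.4% and 45.0% of probe sets fell, and in deciles 2 and 3 from the dim end 33.4% and 37.0% rose while 1.83% and 1.88% fell. Fewer were called in all 4 scalings: 663 of 3556, 485 of 3555 and 316 of 3556 fell in the brightest 3 deciles, and 651 of 3555 in the next dimmer one. In deciles 2 and 3, 248 of 3556 and 251 of 3555 rose in all 4. Each gene list is therefore set against the decile that holds its median level. Unless said otherwise, the share beside a list is of calls in the deposited values. Counts in all 4 scalings are to be read against the smaller numbers given here. Neighbouring deciles differ in their shares, so for a list whose median level lies near an edge the comparison depends on the side.

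The genes of the MAP kinase pathways changed in part. Of 14 measured MAP kinases and their upstream kinases 6 fell and 1 rose, 1 fall holding in all 4 scalings, with a median of -0.14 against 61.4% that fell in the decile of like brightness. The gene that held was Map2k4, a kinase that activates JNK and p38, which fell by 0.67 ± 0.11 (adjusted p = 0.00034) with all 8 arrays below alb-SREBP-1a. The kinase gene Braf fell by 0.38 ± 0.07 (adjusted p = 0.0011), a call lost after cyclic loess, and Mapk8, the gene of JNK1, fell by 0.38 ± 0.09 (adjusted p = 0.0029), lost after quantile normalization and cyclic loess. The p38α gene Mapk14 differed by -0.13 ± 0.09 (adjusted p = 0.26), and among the scalings was called lower after centring. Among 15 phosphatases and feedback inhibitors of MAP kinases 3 fell and 0 rose, with a median of -0.17 that was 0.01 after cyclic loess, against 51.1% that fell in their decile.

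Dusp6, the gene of a phosphatase that switches off ERK and is itself induced by ERK, had log2 signals of 7.38 (lowest), 8.07 (median) and 8.42 (highest) over the 8 alb-SREBP-1a arrays, and 6.58, 7.05 and 7.51 over the 8 alb-SREBP-1a∆P arrays. In 6 alb-SREBP-1a∆P arrays it lay below all alb-SREBP-1a arrays. The C57Bl6 mean was 8.07, level with the alb-SREBP-1a median. Dusp6 fell by 0.93 ± 0.15 (adjusted p = 0.00037), or 1.91-fold, and fell in all 4 scalings, while the stress-induced phosphatase gene Dusp1 differed by -0.28 ± 0.22 (adjusted p = 0.31).

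Immediate early genes, which MAP kinases switch on within minutes, moved little as a list: of 23 measured 2 fell, both in all 4 scalings, and 1 rose, with a median of -0.01, against 29.1% and 18.9% in their decile. The AP-1 component gene Jun fell by 0.86 ± 0.15 (adjusted p = 0.00051), in 7 of 8 arrays below all alb-SREBP-1a arrays, and the zinc finger factor gene Klf6 fell by 0.47 ± 0.13 (adjusted p = 0.0079), also in 7 of 8. Fosb rose by 0.34 ± 0.13 (adjusted p = 0.04), a call lost in each of the 3 other scalings, and Egr1 differed by -0.12 ± 0.24 (adjusted p = 0.69). The mean level of the 23 genes overlapped between the lines, at 6.07 to 6.62 in alb-SREBP-1a and 5.93 to 6.66 in alb-SREBP-1a∆P.

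SREBP's own machinery and targets were next. Of 7 measured genes for SREBP precursors, their escorts and their proteases 4 fell, 2 of them in all 4 scalings, against 45.0% in the decile. Srebf2, the gene of the isoform that drives cholesterol synthesis, fell by 0.30 ± 0.09 (adjusted p = 0.015) and Insig2, a retention factor in the endoplasmic reticulum, fell by 0.52 ± 0.18 (adjusted p = 0.024). Both calls were lost after quantile normalization and cyclic loess. The escort gene Scap differed by 0.07 ± 0.07 (adjusted p = 0.43) and was called higher after those 2 scalings.

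Cholesterol synthesis and uptake genes fell in 10 of 18 cases, with 0 rises and a median of -0.29, against 45.0% that fell in their decile. The number depended on the scaling: 17 of 18 fell after centring, and 1 fell and 1 rose after cyclic loess. Sc5d, a late enzyme of the pathway whose promoter is printed above, was the gene that fell in all 4. Its log2 signal ran between 11.89 and 12.25 (median 12.15) in alb-SREBP-1a and between 11.63 and 11.93 (median 11.82) in alb-SREBP-1a∆P. In 6 of 8 alb-SREBP-1a∆P arrays it lay below all alb-SREBP-1a arrays, and it fell by 0.31 ± 0.07 (adjusted p = 0.0023). The lanosterol demethylase gene Cyp51 fell by 0.44 ± 0.09 (adjusted p = 0.0015) and the isomerase gene Idi1 fell by 0.43 ± 0.10 (adjusted p = 0.0023), both lost after cyclic loess.

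Fatty acid synthesis, elongation and desaturation genes gave no call in the deposited values in either direction among 17 measured, against 45.0% of probe sets that fell in the decile of like brightness. In other scalings some were called: 1 rose after quantile normalization, 3 rose after cyclic loess and 4 fell after centring. Their median was -0.10 in the deposited values, 0.02 after quantile normalization, 0.04 after cyclic loess and -0.26 after centring. The synthase gene Fasn differed by -0.30 ± 0.19 (adjusted p = 0.22) and the desaturase gene Scd1 by 0.03 ± 0.07 (adjusted p = 0.77). Of 12 triglyceride assembly genes 4 fell, 0 of them in all 4 scalings, also against 45.0%. The median level of that list lay at the dim edge of its decile, and 61.4% fell in the next dimmer decile. The mitochondrial acyltransferase gene Gpam fell by 0.37 ± 0.12 (adjusted p = 0.02), lost after quantile normalization and cyclic loess.

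Lipid droplet genes differed from one another. Plin2 codes for the coat protein of hepatocyte droplets, and its log2 signal was 11.25 (lowest), 11.43 (median) and 11.55 (highest) over the 8 alb-SREBP-1a arrays, and 10.59, 10.79 and 11.13 over the 8 alb-SREBP-1a∆P arrays. The lines did not overlap, and the C57Bl6 mean (11.35) lay with alb-SREBP-1a. Plin2 fell by 0.57 ± 0.08 (adjusted p = 0.00014), or 1.49-fold, and was the 1 gene of the 15 in this list to fall in all 4 scalings, although 5 fell in the deposited values, against 61.4% in their decile. The lipase inhibitor gene G0s2 fell by 0.57 ± 0.14 (adjusted p = 0.0041), lost after quantile normalization and cyclic loess, and the triglyceride lipase gene Pnpla2 differed by -0.04 ± 0.10 (adjusted p = 0.76).

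Fatty acid oxidation genes fell in larger shares than their decile. Of 18 genes of mitochondrial β-oxidation 16 fell, 10 of them in all 4 scalings, against 45.0% that fell in their decile. In 10 the lines did not overlap, against 4.06% of all probe sets that lay below without overlap. Of 20 genes of peroxisomal oxidation and transport 15 (8 in all 4 scalings) fell and of 13 peroxins, which import proteins into peroxisomes, 10 (4 in all 4 scalings) fell, against 45.0% and 61.4% in their deciles. Abcd2, a transporter of very long chain fatty acids into peroxisomes, had log2 signals of 6.16 (lowest), 6.74 (median) and 7.15 (highest) over the 8 alb-SREBP-1a arrays, and 4.71, 5.29 and 6.13 over the 8 alb-SREBP-1a∆P arrays. The lines did not overlap, while C57Bl6 alone spanned 5.41 to 8.15. Abcd2 fell by 1.32 ± 0.21 (adjusted p = 0.00028), or 2.5-fold, the largest fall among genes called in all 4 scalings without overlap of the lines and with a mean above the median of all probe sets in at least 1 line.

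Enzymes inside the peroxisome had smaller differences. The bifunctional enzyme gene Hsd17b4 fell by 0.50 ± 0.08 (adjusted p = 0.00034) and the carnitine octanoyltransferase gene Crot fell by 0.38 ± 0.06 (adjusted p = 0.00024), each with no overlap of the lines, while the catalase gene Cat differed by -0.08 ± 0.07 (adjusted p = 0.34). Of the import genes Pex7 fell by 0.71 ± 0.11 (adjusted p = 0.00026) and Pex2 fell by 0.60 ± 0.09 (adjusted p = 0.0002), both without overlap. Pex11a, which promotes division of peroxisomes, fell by 0.61 ± 0.11 (adjusted p = 0.00069) with 7 of 8 arrays below alb-SREBP-1a.

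Targets of PPARα, the receptor that turns on fatty acid use in fasting, fell in 12 of 18 cases and in 7 in all 4 scalings, against 45.0% in their decile. Their median was -0.49, and it remained below 0 in each scaling, between -0.66 and -0.34. Pdk4, the gene of a kinase that inhibits pyruvate dehydrogenase, had log2 signals of 7.08 (lowest), 7.49 (median) and 8.11 (highest) over the 8 alb-SREBP-1a arrays, and 5.64, 6.46 and 6.81 over the 8 alb-SREBP-1a∆P arrays. No array of one line reached the other, and the C57Bl6 mean was 7.85. Pdk4 fell by 1.14 ± 0.16 (adjusted p = 0.00015), or 2.2-fold. The omega-hydroxylase gene Cyp4a10 fell by 1.01 ± 0.40 (adjusted p = 0.047), lost without replicates 1 and 2 of alb-SREBP-1a and in the quantile and loess scalings. The receptor gene Ppara itself differed by -0.25 ± 0.12 (adjusted p = 0.082) and passed after centring.

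**Figure D2:**
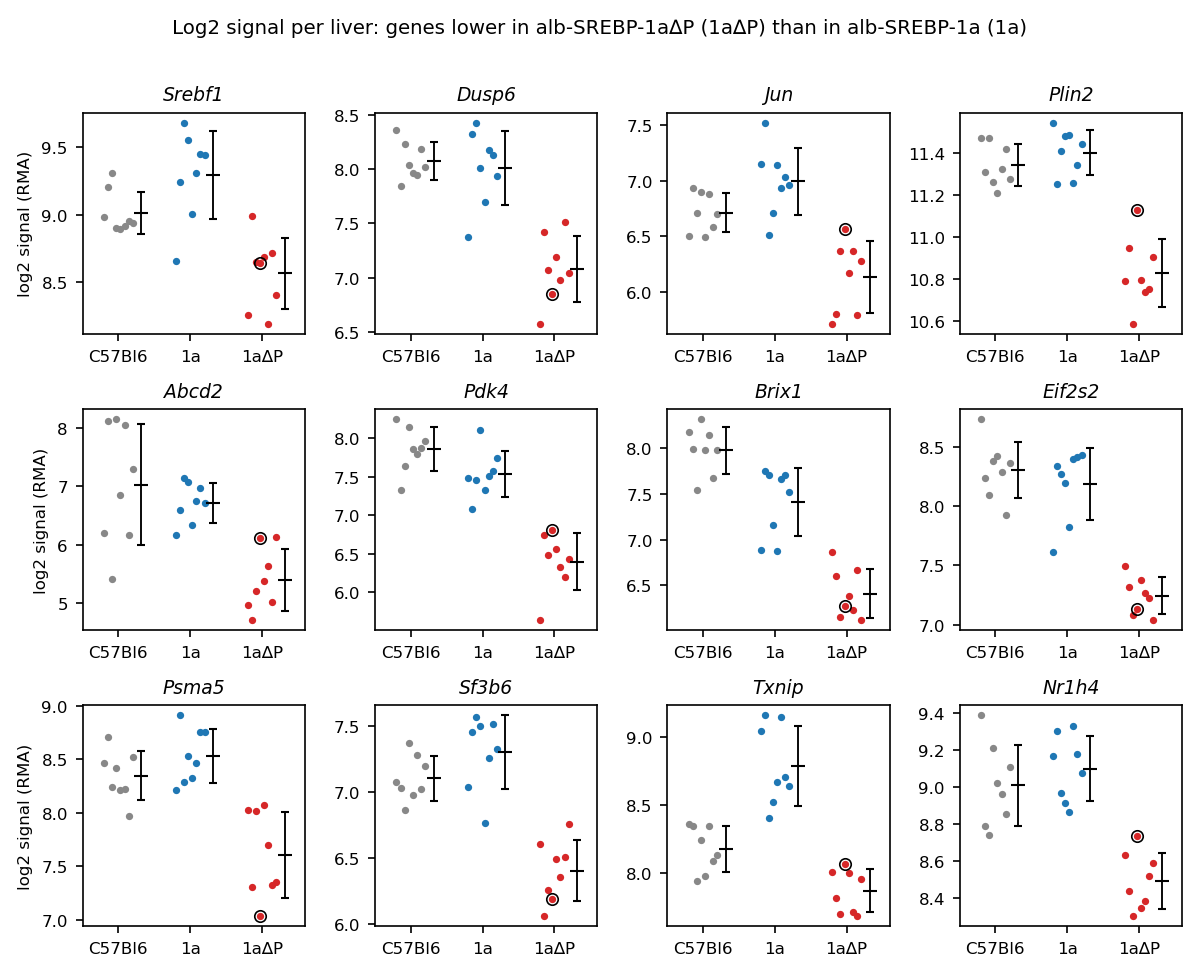
Log2 signals on single arrays of genes that fell, by line, with C57Bl6 for level; points are arrays, black marks the mean ± SD of 8 arrays and a ring replicate 4 of alb-SREBP-1a∆P. For Plin2, Abcd2 and Pdk4 the highest of the 8 alb-SREBP-1a∆P arrays (11.13, 6.13 and 6.81) lies below the lowest alb-SREBP-1a array (11.25, 6.16 and 7.08).

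Other mitochondrial genes also fell. Of 17 citric acid cycle genes 13 fell and 4 did so in all 4 scalings. Among 34 genes of complex I 21 fell (5 in all 4 scalings), among 23 of complexes II to IV 14 (5), and among 15 of the ATP synthase 9 (1), with 45.0% in the decile of all 4 lists. The subunit gene Idh3a of isocitrate dehydrogenase fell by 0.67 ± 0.08 (adjusted p = 8.8e-05) and Dld, a subunit shared by several dehydrogenases, fell by 0.64 ± 0.09 (adjusted p = 0.00017). Citrate synthase (Cs) fell by 0.25 ± 0.08 (adjusted p = 0.018), a call lost after quantile normalization and cyclic loess. The complex I gene Ndufa6 fell by 0.56 ± 0.07 (adjusted p = 0.00011), the complex IV gene Cox4i1 fell by 0.48 ± 0.08 (adjusted p = 0.00037) and the cytochrome c gene Cycs fell by 0.51 ± 0.09 (adjusted p = 0.00073), each with no overlap.

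Mitochondrial ribosomal proteins, which translate the messages of the mitochondrial genome, were mostly lower. Of 77 measured genes 60 fell, 28 in all 4 scalings, and 0 rose, with a median of -0.38 against -0.30 in their decile, where 61.4% fell. In 27 the lines did not overlap, against 4.06% of all probe sets that lay below without overlap. Mrps27 had log2 signals of 7.31 (lowest), 7.43 (median) and 7.78 (highest) over the 8 alb-SREBP-1a arrays, and 6.40, 6.62 and 6.95 over the 8 alb-SREBP-1a∆P arrays. Each alb-SREBP-1a∆P array was below every alb-SREBP-1a array and the C57Bl6 mean (7.13) lay between the lines. Mrps27 fell by 0.85 ± 0.09 (adjusted p = 8.6e-05), whereas Mrpl12 differed by -0.18 ± 0.08 (adjusted p = 0.085). Of 20 mitochondrial chaperones and proteases 17 fell, 8 in all 4 scalings, also against 61.4%: the protease gene Lonp1 fell by 0.57 ± 0.09 (adjusted p = 0.00026) and the chaperonin gene Hspd1 fell by 0.21 ± 0.07 (adjusted p = 0.032), the latter lost after quantile normalization and cyclic loess. Degradation of branched-chain amino acids, also mitochondrial, had 12 falls in 17 genes (3 in all 4 scalings) against 45.0% in their decile, among them the propionyl-CoA carboxylase gene Pccb, which fell by 0.60 ± 0.07 (adjusted p = 8.8e-05).

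Genes that make and splice RNA fell in part. Of 26 general transcription factors and TBP-associated factors 16 fell and 10 did so in all 4 scalings, against 29.1% in their decile. Their median level lay near the bright edge of that decile, and 51.1% fell in the next brighter decile. Of 13 RNA polymerase II subunits 8 fell (4 in all 4 scalings), and of 30 mediator subunits 17 fell (7) and 1 rose, both against 51.1% in their decile. The median level of the polymerase II list lay at the bright edge of that decile, and 61.4% fell in the next brighter decile. The TFIIA subunit gene Gtf2a2 fell by 0.75 ± 0.09 (adjusted p = 8.6e-05) and the TATA-binding protein gene Tbp fell by 0.45 ± 0.07 (adjusted p = 0.00023), both without overlap of the lines. Among 31 SR and U snRNP proteins, the core of the splicing machinery, 22 fell and 9 did so in all 4 scalings, with a median of -0.44, against 61.4% that fell in their decile.

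Sf3b6, a protein of the U2 snRNP that touches the branch point, had log2 signals of 6.76 (lowest), 7.39 (median) and 7.56 (highest) over the 8 alb-SREBP-1a arrays, and 6.06, 6.43 and 6.76 over the 8 alb-SREBP-1a∆P arrays. The ranges met at 6.76 without overlap, and the C57Bl6 mean was 7.10. Sf3b6 fell by 0.90 ± 0.13 (adjusted p = 0.00015) and the SR protein gene Srsf3 fell by 0.71 ± 0.09 (adjusted p = 0.00013).

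Translation and ribosome assembly genes differed by list. Of 49 translation initiation factors 40 fell and 11 did so in all 4 scalings, of 37 ribosome biogenesis factors 28 and 12, and of 53 cytosolic ribosomal proteins 20 and 3. Their deciles had 61.4%, 51.1% and 45.0% falls in that order. Eif2s2, a subunit of the factor that brings the initiator tRNA, had log2 signals of 7.61 (lowest), 8.30 (median) and 8.43 (highest) over the 8 alb-SREBP-1a arrays, and 7.04, 7.25 and 7.50 over the 8 alb-SREBP-1a∆P arrays. All 8 alb-SREBP-1a∆P arrays lay lower than any of alb-SREBP-1a, and C57Bl6 (8.31, mean) lay with the latter. Eif2s2 fell by 0.94 ± 0.12 (adjusted p = 0.00012), or 1.92-fold. The cap-binding protein gene Eif4e fell by 0.75 ± 0.12 (adjusted p = 0.00039), while Eif4ebp2, a repressor of it, differed by -0.02 ± 0.07 (adjusted p = 0.82).

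Brix1, needed to build the large ribosomal subunit, had log2 signals of 6.88 (lowest), 7.59 (median) and 7.75 (highest) over the 8 alb-SREBP-1a arrays, and 6.12, 6.33 and 6.86 over the 8 alb-SREBP-1a∆P arrays. The lines did not overlap and the C57Bl6 mean (7.97) was above both medians. Brix1 fell by 1.00 ± 0.16 (adjusted p = 0.00026), or 2-fold. The ribosomal protein gene Rpl4 fell by 0.46 ± 0.07 (adjusted p = 0.00035). Small nucleolar RNAs, which guide RNA modification, moved both ways: of 54 measured 10 fell and 6 rose, 6 and 1 of them in all 4 scalings, against 51.1% and 10.2% in their decile. Snora73a fell by 1.13 ± 0.20 (adjusted p = 0.00061) and its close copy Snora73b fell by 1.23 ± 0.24 (adjusted p = 0.00094), a pair whose probes may not tell them apart, and Snord104 fell by 0.73 ± 0.13 (adjusted p = 0.00048). Snord57 rose by 0.30 ± 0.08 (adjusted p = 0.0063), lost after centring.

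Promoter letters were counted beside these lists, as a description, in the 300 bases around the start of 15614 genes on both strands. CCGGAAG was present in 12.5% of all promoters, in 22.6% of those of genes that fell in all 4 scalings and in 1.54% of those that rose in all 4. Brightness went along with this: among the brightest 4 deciles it was in 23.2% of the genes that fell and in 17.8% of those not called the same way in all 4 scalings. By list it was in 13 of 26 promoters of SR and U snRNP proteins (50.0%), 13 of 32 of ribosome biogenesis factors (40.6%), 24 of 68 of mitochondrial ribosomal proteins (35.3%), 13 of 39 of translation initiation factors (33.3%) and 9 of 32 of proteasome subunits (28.1%). It was in 2 of 12 promoters of PPARα targets (16.7%) and 2 of 14 of cholesterol genes (14.3%). Brix1 and Sf3b6 hold it at 2 positions each, as printed above. The E-box CACGTG was in 8.38% of all promoters, in 11.5% of those that fell and in 4.78% of those that rose in all 4 scalings. Among the brightest 4 deciles the shares were 12.5% of the genes that fell and 10.3% of those not called the same way in all 4 scalings. By list the E-box was in 7 of 32 ribosome biogenesis promoters (21.9%), 7 of 39 of translation initiation (17.9%), 2 of 12 of PPARα targets (16.7%) and 2 of 14 of cholesterol genes (14.3%). It was in 3 of 32 proteasome promoters (9.38%), 5 of 68 of mitochondrial ribosomal proteins (7.35%) and 1 of 26 of SR and U snRNP proteins (3.85%). CCAAT, a box bound by NF-Y, was in 13 of 14 cholesterol promoters (92.9%) against 38.2% of all and 37.4% of those that fell.

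Protein turnover genes differed by list. Of 39 proteasome subunits 34 fell, 16 of them in all 4 scalings, and 1 rose, with a median of -0.40 against -0.19 in their decile, where 45.0% fell. Their median level lay near the dim edge of that decile, and 61.4% fell in the next dimmer decile. In 13 of the 39 the lines did not overlap, against 4.06% of all probe sets that lay below without overlap. Psma5, a subunit of the outer ring of the core particle, had log2 signals of 8.21 (lowest), 8.50 (median) and 8.91 (highest) over the 8 alb-SREBP-1a arrays, and 7.03, 7.53 and 8.08 over the 8 alb-SREBP-1a∆P arrays. No alb-SREBP-1a∆P array reached the lowest of alb-SREBP-1a, and the C57Bl6 mean was 8.35. Psma5 fell by 0.93 ± 0.16 (adjusted p = 0.00049). Of the other subunits of that ring Psma2 fell by 0.74 ± 0.10 (adjusted p = 0.00012), Psma6 fell by 0.72 ± 0.09 (adjusted p = 8.9e-05) and Psma1 fell by 0.55 ± 0.08 (adjusted p = 0.0002), each with no overlap.

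Upstream of the proteasome 27 of 43 ubiquitin-conjugating enzymes and cullins fell (10 in all 4 scalings) and 1 rose, a share near the 61.4% of their decile. The ubiquitin-conjugating enzyme gene Ube2a fell by 0.59 ± 0.09 (adjusted p = 0.00017). Of 13 SUMO pathway genes 11 fell, 3 of them in all 4 scalings, against 51.1%, and of 32 autophagy genes 17 fell, 8 of them in all 4, against 61.4%. The median level of the autophagy list lay at the dim edge of its decile, and 51.1% fell in the next dimmer decile. Atg3, which attaches lipid to LC3 proteins, fell by 0.66 ± 0.10 (adjusted p = 0.00018). Among 7 sirtuins, NAD-dependent deacylases, 5 fell, against 51.1% in their decile, and 1, the nucleolar Sirt7, did so in all 4 scalings, by 0.69 ± 0.10 (adjusted p = 0.00019).

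**Figure D3:**
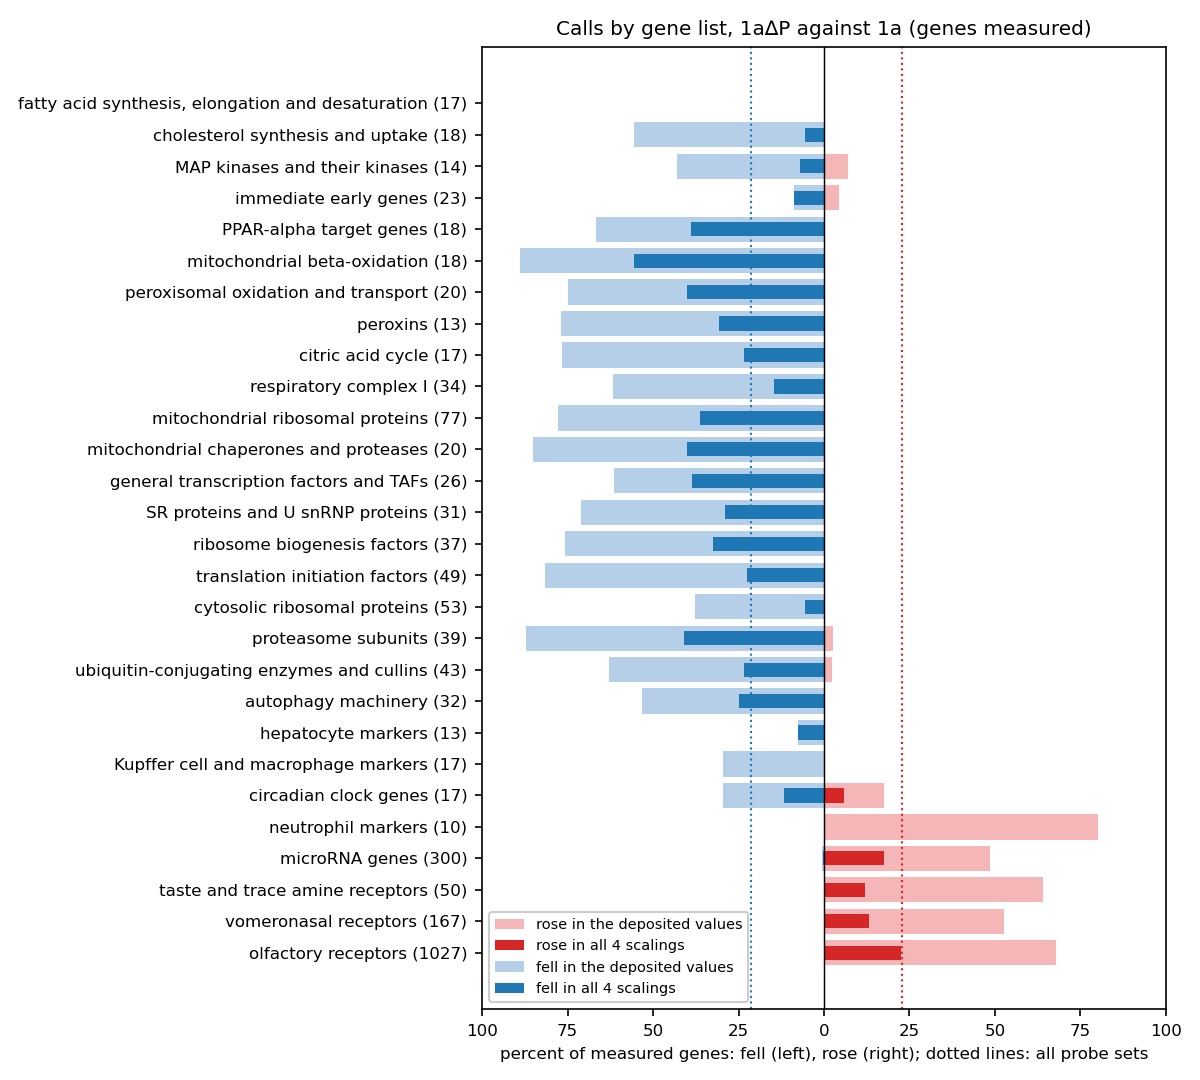
Share of the measured genes of each list that rose (right of 0) and fell (left of 0) in alb-SREBP-1a∆P, in percent, with the part called in all 4 scalings as narrower dark bars. Dotted lines are the shares over all probe sets in the deposited values (22.8% and 21.4%). Of the proteasome subunits 34 of 39 fell, of the fatty acid synthesis genes 0 of 17, and of the olfactory receptors 697 of 1027 rose.

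Genes of liver identity and bile acid handling fell in part. Of 19 liver-enriched transcription factors 10 fell and 3 did so in all 4 scalings, against 61.4% in the decile, and of 18 bile acid genes (synthesis and transport) 9 fell, 3 of them in all 4 scalings, and 1 rose, against 45.0%. Nr1h4, the bile acid receptor FXR, had log2 signals of 8.86 (lowest), 9.12 (median) and 9.33 (highest) over the 8 alb-SREBP-1a arrays, and 8.30, 8.48 and 8.73 over the 8 alb-SREBP-1a∆P arrays. The lines did not overlap, and the C57Bl6 mean (9.01) lay within alb-SREBP-1a. Nr1h4 fell by 0.61 ± 0.09 (adjusted p = 0.00018). The bile salt pump gene Abcb11 fell by 0.49 ± 0.10 (adjusted p = 0.001) and the conjugating enzyme gene Baat fell by 0.55 ± 0.07 (adjusted p = 0.00013), while Cyp7a1, the rate-limiting enzyme of bile acid synthesis, differed by -0.58 ± 0.31 (adjusted p = 0.13).

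Values of further liver transcription factor genes were as follows. The xenobiotic receptor genes Nr1i2 (PXR) and Nr1i3 (CAR) fell by 0.60 ± 0.11 (adjusted p = 0.00075) and fell by 0.59 ± 0.11 (adjusted p = 0.00099), and Nr2f2, the gene of COUP-TFII, fell by 0.76 ± 0.10 (adjusted p = 0.00013). Hnf4a, a central factor of hepatocyte genes, differed by 0.13 ± 0.07 (adjusted p = 0.16) and among the scalings was called higher after cyclic loess. Of 30 cytochrome P450 genes of families 1 to 3 there were 13 that fell (5 in all 4 scalings) and 2 that rose, a share of falls near the 45.0% of their decile.

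Sex-biased genes gave few calls, with 1 rise and 1 fall among 14 male-biased and 1 rise and 3 falls among 12 female-biased genes, where 45.0% and 12.5% fell in their deciles. Of the female-biased falls 2 held in all 4 scalings, Abcd2 above among them, and no other call of these lists did. The female-biased median of -0.04 was -0.21 to -0.18 in the 3 other scalings. The male-biased glucuronosyltransferase gene Ugt2b1 rose by 0.33 ± 0.07 (adjusted p = 0.0016) with all 8 arrays above alb-SREBP-1a, and lost its call after centring.

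Clock genes moved both ways: of 17 measured 5 fell, 2 of them in all 4 scalings, and 3 rose, 1 of them in all 4, against 51.1% and 10.2% in their decile. Their median of 0.03 was -0.14 after centring. The activator gene Arntl (BMAL1) fell by 0.67 ± 0.16 (adjusted p = 0.0034) and the repressor gene Nfil3 fell by 0.67 ± 0.15 (adjusted p = 0.0021), each with 6 arrays below alb-SREBP-1a. Ciart, a repressor of the clock, rose by 0.60 ± 0.14 (adjusted p = 0.0034), and Nr1d1 (REV-ERBα) rose by 0.30 ± 0.10 (adjusted p = 0.022), the latter lost after centring and with the replicate number as a block. Per2 differed by -0.02 ± 0.10 (adjusted p = 0.9). All animals were killed at the same hour of the morning, so these values describe a single time of day.

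Energy sensing and antioxidant genes had these values. Of 8 AMPK subunits and their kinase 5 fell, 2 of them in all 4 scalings, and 1 rose, a share of falls near the 61.4% of their decile: the catalytic subunit gene Prkaa1 fell by 0.58 ± 0.10 (adjusted p = 0.00043) and the γ3 subunit gene Prkag3 rose by 0.50 ± 0.12 (adjusted p = 0.003). Of 21 NRF2 and glutathione genes 13 fell, 6 of them in all 4 scalings, against 45.0%. The quinone reductase gene Nqo1 fell by 0.75 ± 0.12 (adjusted p = 0.00032), the glutathione synthesis gene Gclc fell by 0.47 ± 0.08 (adjusted p = 0.00056) and the NRF2 gene Nfe2l2 fell by 0.58 ± 0.11 (adjusted p = 0.00071). Txnip, a thioredoxin-binding protein whose gene responds to glucose, ranged between 8.40 and 9.16 (median 8.69) in alb-SREBP-1a and between 7.68 and 8.07 (median 7.89) in alb-SREBP-1a∆P. The lines were fully apart, with the C57Bl6 mean at 8.18, and Txnip fell by 0.92 ± 0.12 (adjusted p = 0.00012).

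Other metabolic pathways were counted in the same way. Of 9 urea cycle genes 4 fell, of 9 methionine cycle and transsulfuration genes 1 fell, and of 17 insulin signalling and FOXO genes 8 fell, 0 in each list in all 4 scalings. Gluconeogenesis had 4 falls in 12 genes and glycogen metabolism 7 in 13, with 1 in each in all 4 scalings. The growth hormone, STAT5 and IGF axis had 5 falls in 15, none of which held in all 4. For the urea, methionine and gluconeogenesis lists 45.0% fell in the decile, and 316 of 3556 probe sets in all 4 scalings. For the insulin, glycogen and growth hormone lists these were 61.4% and 485 of 3555. Lists this small can hold few such calls at those shares.

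Defence genes had these values. Of 21 interferon-stimulated genes 12 fell, a share near the 51.1% of their decile, and 6 did so in all 4 scalings, among them the GTPase gene Irgm1, which fell by 0.62 ± 0.08 (adjusted p = 0.00013) with no overlap of the lines. Of 24 acute-phase genes 3 fell and 1 did so in all 4 scalings, against 45.0% in the decile. Serum amyloid Saa1 differed by -1.01 ± 0.54 (adjusted p = 0.14), and the iron-scavenging lipocalin gene Lcn2 fell by 0.72 ± 0.25 (adjusted p = 0.031) from means of 9.31 to 8.59, against 6.88 in C57Bl6. The Lcn2 call was lost without replicates 1 and 2 of alb-SREBP-1a and in the quantile and loess scalings.

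Of 6 genes of metallothioneins, which bind zinc and copper, and of zinc transport 2 rose and 2 fell, against 6.50% and 61.4% in their decile. Mt1 rose by 1.33 ± 0.34 (adjusted p = 0.0051) and Mt2 rose by 1.75 ± 0.50 (adjusted p = 0.011) in all 4 scalings. Their arrays overlapped, with 5 of 8 alb-SREBP-1a∆P arrays above all of alb-SREBP-1a for each gene.

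Other large falls lay outside the lists. The genes with the largest falls among those without overlap and called in all 4 scalings, after Abcd2 and beside Pdk4, Brix1, Eif2s2 and Psma5 above, included Naaladl2, which fell by 1.26 ± 0.22 (adjusted p = 0.0005), Serpinb1a, an inhibitor of neutrophil proteases, which fell by 1.05 ± 0.21 (adjusted p = 0.0014), and Arpp19, an inhibitor of a mitotic phosphatase, which fell by 0.95 ± 0.12 (adjusted p = 0.00012). The study named genes as centres of gene networks in these lines, a choice made on these samples and so no independent evidence. Among the measured genes of that list 4 of 10 fell, 1 of them in all 4 scalings, against 29.1% in their decile. Their median level lay at the bright edge of that decile, and 51.1% fell in the next brighter decile.

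Marker genes of non-hepatocyte cells moved with the line in some classes, and in bulk tissue fewer cells of a type cannot be told apart from less RNA per cell. Of 15 sinusoidal endothelial markers 11 fell, 1 of them in all 4 scalings, against 61.4% in their decile, and their mean level was 7.76 to 7.97 in alb-SREBP-1a and 7.45 to 7.79 in alb-SREBP-1a∆P. Of 17 Kupffer cell and macrophage markers 5 fell, 0 in all 4 scalings, also against 61.4%, with mean levels of 7.65 to 8.21 and 7.53 to 8.11 and a median difference of -0.21 that was 0.02 after cyclic loess. Of 15 stellate cell and fibrosis genes 6 fell (1 in all 4 scalings) and 1 rose, against 51.1% and 10.2%, at mean levels of 7.16 to 7.36 and 7.07 to 7.31. The collagen gene Col1a1 rose by 0.27 ± 0.08 (adjusted p = 0.01), lost after centring. Of 17 T, NK and B cell markers 2 rose and 2 fell, against 36.1% and 3.68%. The part of these cells in the differences above was not tested.

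Of 10 neutrophil markers 8 rose in the deposited values, with mean levels of 4.46 to 4.65 in alb-SREBP-1a and 4.74 to 5.06 in alb-SREBP-1a∆P, but 0 did so in all 4 scalings. They were dim: 1 of the 10 lay above the median level of the array, and in their decile 37.0% of all probe sets rose. The calprotectin gene S100a8, a defining marker, rose by 0.49 ± 0.12 (adjusted p = 0.0033), lost after quantile normalization and cyclic loess. Of 7 cholangiocyte markers 2 rose and of 4 adipocyte markers 3, none in all 4 scalings and against 36.1% in their decile, and 2 and 1 of these markers lay above the median level of the array.

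By count, microRNA genes held the most rises among the lists after the olfactory receptors, while some smaller lists of dim genes rose in larger shares. Of 300 measured microRNA genes 146 rose and 2 fell, against 37.0% that rose in their decile. In all 4 scalings 53 rose and 1 fell, against 251 and 67 of the 3555 probe sets of their decile. In 17 of the 300 the lines did not overlap, against 1.88% of all probe sets that lay above without overlap. Mir301b had log2 signals of 4.05 (lowest), 4.74 (median) and 5.20 (highest) over the 8 alb-SREBP-1a arrays, and 5.41, 6.04 and 6.46 over the 8 alb-SREBP-1a∆P arrays. The lowest alb-SREBP-1a∆P array exceeded the highest of alb-SREBP-1a, and the C57Bl6 mean was 4.31. Mir301b rose by 1.43 ± 0.17 (adjusted p = 0.0001), or 2.69-fold, the largest rise by the same ranking. Mir297b rose by 1.17 ± 0.15 (adjusted p = 0.00012) and Mir346, a microRNA gene within a glutamate receptor gene, rose by 0.72 ± 0.09 (adjusted p = 0.00012), both without overlap.

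The copies of 2 microRNAs, named here after their values were seen, moved together. Mir680-1, Mir680-2 and Mir680-3 rose by 2.33 ± 0.31, 2.08 ± 0.39 and 1.01 ± 0.14 (adjusted p = 0.00012, 0.00081 and 0.00015). In each, 7 of 8 alb-SREBP-1a∆P arrays lay above all alb-SREBP-1a arrays and the eighth was replicate 4, at 6.004, 6.219 and 6.835. Without replicate 4 the differences were 2.57, 2.44 and 1.13. Mir365-1 rose by 0.77 ± 0.12 (adjusted p = 0.00032) with no overlap and Mir365-2 rose by 0.77 ± 0.13 (adjusted p = 0.00052) with 6 of 8 arrays above. Of the 53 microRNA genes that rose in all 4 scalings 44 have a mature sequence in the RefSeq table, and besides these copies Mir181c shares a seed with Mir181d and Mir326 with Mir330.

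**Figure D4:**
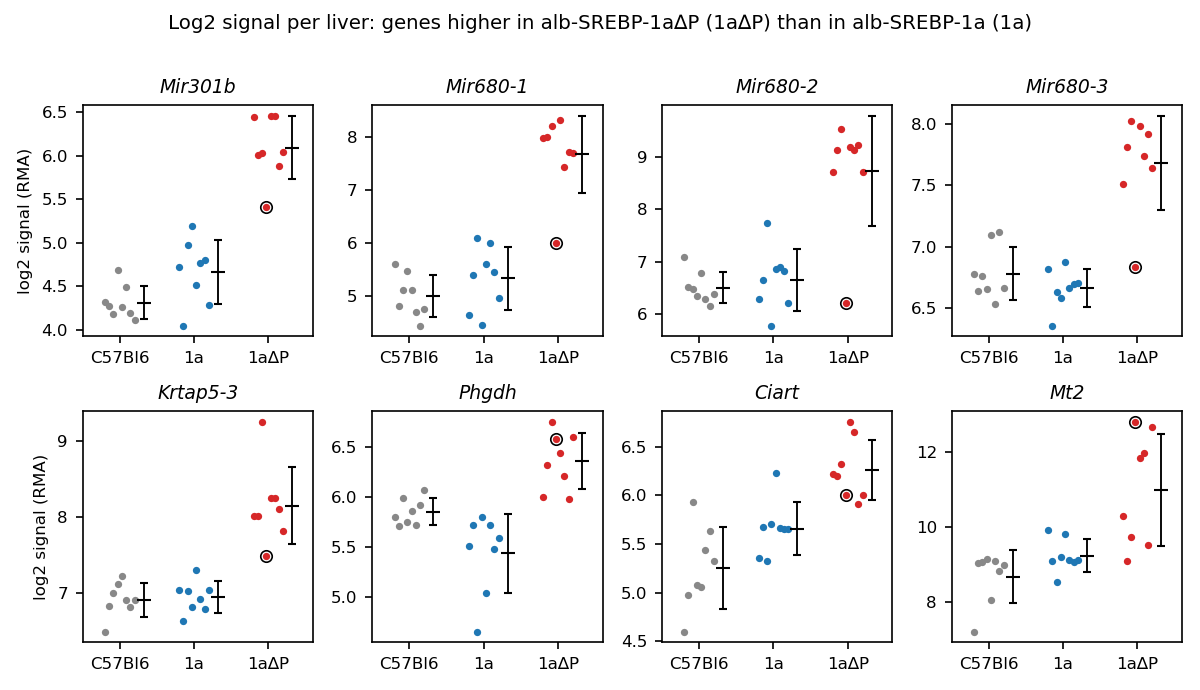
Log2 signals on single arrays of genes that rose, by line, with C57Bl6 for level; points are arrays, black marks the mean ± SD of 8 arrays and a ring replicate 4 of alb-SREBP-1a∆P. Mir301b and Phgdh separate the lines fully, with the lowest alb-SREBP-1a∆P arrays at 5.41 and 5.98 above the highest alb-SREBP-1a arrays at 5.20 and 5.80.

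Phgdh, the first enzyme of serine synthesis from glucose, was a metabolic gene among the largest rises. Its log2 signal was 4.66 (lowest), 5.55 (median) and 5.80 (highest) over the 8 alb-SREBP-1a arrays, and 5.98, 6.38 and 6.75 over the 8 alb-SREBP-1a∆P arrays. The 8 arrays of alb-SREBP-1a∆P all lay higher, with the C57Bl6 mean (5.86) just above alb-SREBP-1a. Phgdh rose by 0.92 ± 0.16 (adjusted p = 0.00056), or 1.89-fold.

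Sensory receptor genes rose widely at low signal. Of 1027 olfactory receptor genes 697 rose and 0 fell, 230 of them in all 4 scalings, with a median of 0.49 against 0.27 in their decile, where 33.4% rose. Of 167 vomeronasal receptors 88 rose (22 in all 4 scalings), and of 50 taste and trace amine receptors 32 rose (6). Both lists share the decile of the olfactory receptors, where 33.4% rose. The median level of the vomeronasal list lay at the dim edge of that decile, and 19.97% rose in the next dimmer decile. Median differences of the olfactory, vomeronasal, and taste and trace amine lists stayed above 0 in each scaling, at 0.23 to 0.49 for the olfactory receptors. Olfr571 rose by 0.91 ± 0.11 (adjusted p = 8.8e-05), Vmn1r193 rose by 0.91 ± 0.11 (adjusted p = 8.9e-05) and the bitter receptor gene Tas2r118 rose by 1.01 ± 0.13 (adjusted p = 0.00011), each with all 8 arrays above. Members of these families are alike in sequence, so a single member may be read by probes of another.

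Keratin-associated protein and β-defensin genes, of hair and epithelia, had 54 rises and 1 fall in 84 measured, 14 and 1 in all 4 scalings, against 37.0% and 1.88% in their decile. Krtap5-3 had log2 signals of 6.63 (lowest), 6.98 (median) and 7.31 (highest) over the 8 alb-SREBP-1a arrays, and 7.49, 8.06 and 9.25 over the 8 alb-SREBP-1a∆P arrays. Replicate 3 of alb-SREBP-1a∆P was the highest, and no arrays of the lines overlapped. Krtap5-3 rose by 1.20 ± 0.18 (adjusted p = 0.00024). Naming was uneven among the rises: of the 2426 probe sets that rose in all 4 scalings 903 carry 1 gene symbol, 519 several and 1004 none, against 2398, 89 and 586 of the 3073 that fell.

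**Figure D5:**
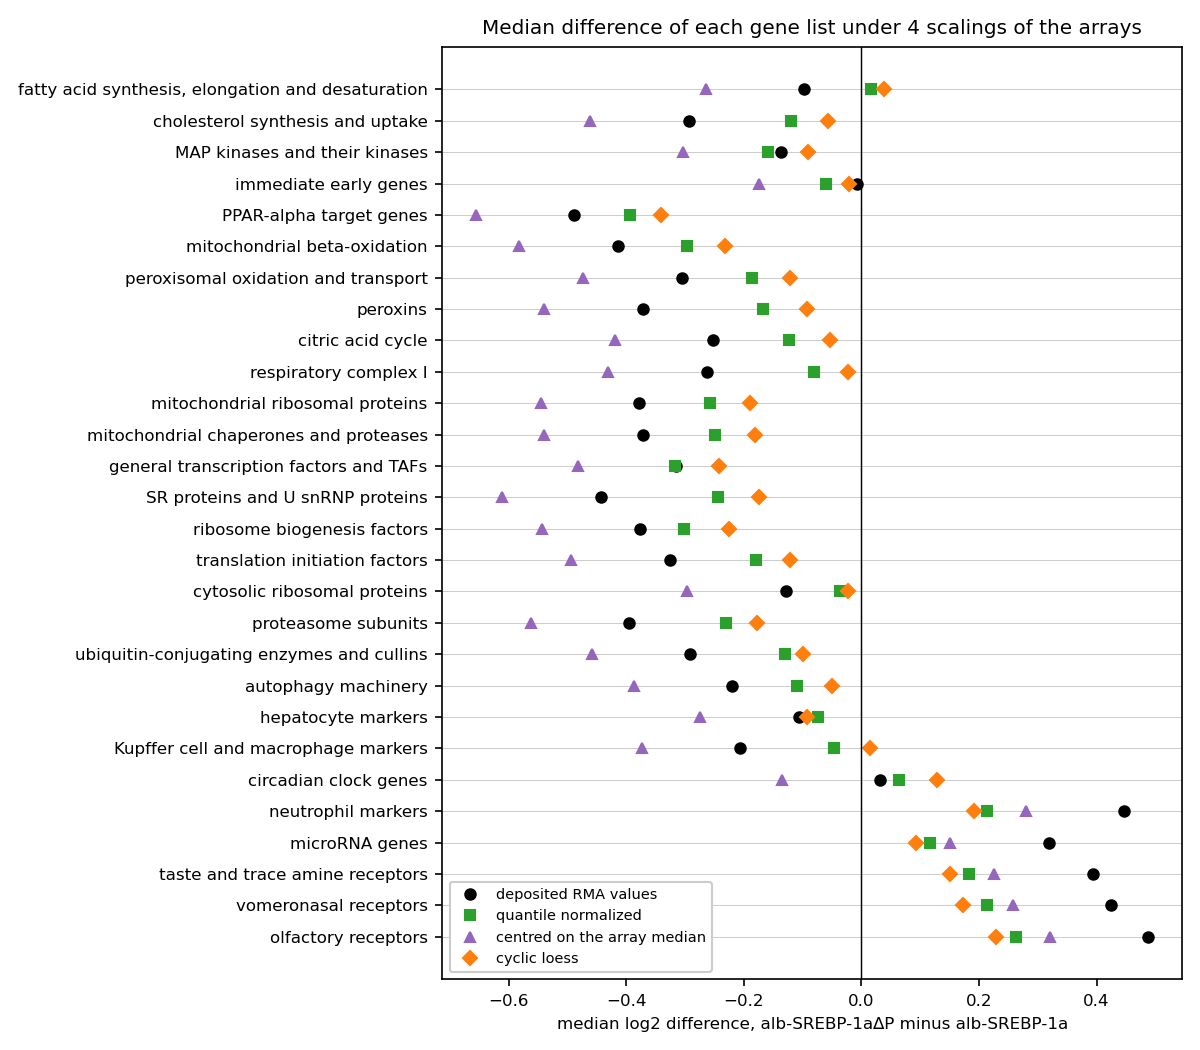
Median log2 difference (alb-SREBP-1a∆P minus alb-SREBP-1a) of each list in the deposited values and after 3 other scalings, 1 point per scaling. PPARα targets lie below 0 in all 4 (-0.66 to -0.34) and olfactory receptors above 0 in all 4 (0.23 to 0.49), while fatty acid synthesis lies on both sides (-0.26 to 0.04).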

How the data were processed

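Liver RNA of single mice was hybridised to Affymetrix Mouse Gene 1.0 ST arrays, and the authors deposited log2 signals from RMA, run in Affymetrix Expression Console, which corrects background, quantile normalizes and summarises probes. Other settings, and the annotation build, were not given in the sources used here. No value was missing among 35556 probe sets. Of these 21789 carry 1 gene symbol, 1621 several and 12146 none in GEO's platform annotation. Each of 19938 genes was represented by its brightest probe set with 1 symbol.

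The 8 alb-SREBP-1a∆P and 8 alb-SREBP-1a arrays, grouped by the labels, were fitted with limma 3.58.1 (R 4.3.3; lmFit, eBayes, two-sided), with Benjamini-Hochberg adjustment over all probe sets and a threshold of 0.05. These p-values reflect only how far the mice of a line lay apart, and the number of arrays limits the precision. The functions were checked on simulated data. Of 65 gene lists written from general knowledge, 63 had 3 or more measured genes and are described by counts and medians without a test. Members and lists were chosen with earlier results of these data known. Named are the 15 genes with the largest difference in each direction (adjusted p under 0.05 in all 4 scalings, lines not overlapping, a line mean above the median of all probe sets), key members of each list and the 3 of smallest p in each, less some left out for length; others are said to be so.

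Alternatives were quantile normalization, centring on the array median, cyclic loess, a filter on dim probe sets, a block for the replicate number, a joint fit of all 24 arrays, an intensity trend, array weights, the mean over a gene's probe sets, the methods' t-test with and without adjustment, a 1.5-fold minimum, and leaving out arrays. Promoters and microRNAs were matched by symbol to RefSeq tables (GRCm38.p6): 15614 genes had a promoter, 4324 did not. Python 3.11.15 with pandas 2.3.3, numpy 2.4.6 and matplotlib 3.10.9 served for tables and figures.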

Additional observations from a re-analysis of the deposited data

Results flagged for a closer look

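Of 222 groups of 8 arrays examined, for 110 genes named above and the spread of values on an array in each line, 11 had 1 array far from the other 7 on the log2 scale, where chance gives about 1 in 20 groups. In alb-SREBP-1a these were Pex11a in replicate 2 (9.25, nearest other array 9.487), Cs in replicate 1 (9.599, nearest 9.828), Ube2a in replicate 3 (7.888, nearest 7.702), Ciart in replicate 5 (6.232, nearest 5.701) and S100a8 in replicate 6 (3.49, nearest 3.932). In alb-SREBP-1a∆P, Nr2f2 stood apart in replicate 2 (7.976, nearest 7.522) and Krtap5-3 in replicate 3 (9.25, nearest 8.255).

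The other 4 all came from replicate 4 of alb-SREBP-1a∆P, the array that also lay apart on the first principal component. Its values were 8.027 for Mir346 (nearest 8.391), 6.004 for Mir680-1 (nearest 7.438), 6.219 for Mir680-2 (nearest 8.701) and 6.835 for Mir680-3 (nearest 7.509), each on the side of alb-SREBP-1a. The 3 Mir680 genes are near-identical copies and do not count as separate observations.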

How the results depend on the processing

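Of 93 genes named above with a call, 56 kept it under every alternative that was run gene by gene. Under all of these but the scalings and the methods' threshold 84 kept it. The filter on dim probe sets held 100 of the 110 named genes, and a gene that it left out counted as kept. The adjusted p with a 1.5-fold minimum, and most fits without a single array, were run for probe set counts and not gene by gene. In the alternatives run gene by gene none of the genes with a call was called in the opposite direction. The 15712 probe sets called became 8326 after quantile normalization, 8013 after cyclic loess, 10303 among probe sets above the median level, 4098 with the methods' t-test at an unadjusted p and 1.5-fold, and 3975 with an adjusted p and 1.5-fold. Higher calls (8105) became 3420, 4110, 2714, 2643 and 2569 in that order, and 3582 after centring on the median; lower calls (7607) became 4906 and 3903 after quantile normalization and cyclic loess, and 1455 and 1406 at the 2 fold thresholds. Lists in which at least 1 in 2 genes fell numbered 31, and 5 after quantile normalization, 1 after cyclic loess and 0 at the methods' threshold; those in which as many rose numbered 6, and 0 in all 3 other scalings and at that threshold, where 58 of the named genes passed. The cause of these changes was not tested, beyond the fewer probe sets that the dim filter and the fold thresholds admit. Leaving out 1 array gave 13395 to 16594 calls, 6723 to 8637 higher and 6672 to 7957 lower, the fewest without replicate 7 of alb-SREBP-1a. The labels do not say whether the replicate numbers pair the mice. Deviations of same-numbered arrays correlated between -0.088 and 0.159, which shows little in common but cannot tell whether the mice were matched. With the replicate number as a block 13749 probe sets passed, 7187 higher and 6562 lower. On arrays the signal over background limits what dim genes can show, and the sensory receptors, microRNA genes and neutrophil markers are mostly dim.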
